A study of Triticum aestivum with 20 samples.

Results

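Cold-treated wheat anthers of 2.2 and 2.5 mm were compared with control anthers of 1.5 and 2.0 mm, so that the cold anthers were the longer ones. All arrays held RNA from BS366, a temperature-sensitive genic male sterile line of Triticum aestivum that sheds fertile pollen when warm and is sterile after cold. Plants stood for 5 days at 10 °C (cold) or 20 °C (control) with 12 h or 14 h of light, after vernalization in the field, and anthers were taken at 1.5, 2.0, 2.2, 2.5 and 3.0 mm. The comparison used 8 of the 20 Affymetrix Wheat Genome arrays, chosen by their labels: the 4 cold arrays of 2.2 and 2.5 mm and the 4 control arrays of 1.5 and 2.0 mm, with 12 h and 14 h once at each length. Every array is the only one of its temperature, light and length. The 4 arrays of a temperature therefore served as replicates although they differ in length and light, and the labels do not say how many plants stand behind each.

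An anther of a cereal passes through meiosis, release of the microspores and pollen filling while it grows, and its wall is lined by the tapetum, a secretory layer that feeds the microspores and then degenerates. Genes of dividing cells, of the tapetum and of later pollen filling follow each other in this course. Where cold holds back the course, anthers of equal length differ in their stage as well as in temperature. Setting longer cold anthers against shorter control anthers asks which differences remain when the transcriptomes are close in development. Anthers hold several cell types, and in such samples a lower level can mean fewer cells of a type or less RNA per cell, which cannot be told apart here.

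The transcriptomes of the 8 arrays were alike. Over the 13805 probe sets tested, Pearson's r between a cold and a control array of the comparison lay between 0.875 and 0.978 with a median of 0.955 over 16 pairs. The same cold arrays set against control arrays of their own lengths gave 0.704 to 0.886 with a median of 0.803. With the cold arrays of 1.5 and 2.0 mm they gave 0.859 to 0.987 with a median of 0.976, higher than with any control group. The median of 0.955 across the temperatures was the same as that among the 4 control arrays (6 pairs, 0.920 to 0.972) and close to that among the 4 cold arrays (0.950 over 6 pairs, 0.892 to 0.986). These coefficients describe arrays that share their probe sets and are not independent of each other.

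The cold array of 2.5 mm and 14 h stood apart from the others. It correlated at 0.892 to 0.931 with the other 3 cold arrays, which reached 0.969 to 0.986 among themselves. Its mean r was 0.885 with the control arrays of 1.5 mm, 0.924 with those of 2.0 mm and 0.865 with those of 2.2 mm, so it was closest to 2.0 mm. The cold array of 2.2 mm and 12 h was closest to 1.5 mm, with a mean r of 0.971 against 0.946 for 2.0 mm and 0.798 for 2.2 mm. The deposited median of the 2.5 mm, 14 h array was 6.19, below the 6.33 to 6.46 of the other 3 cold arrays. Values without it are given beside the results whose call, sign or size it changed most.

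**Figure D1:**
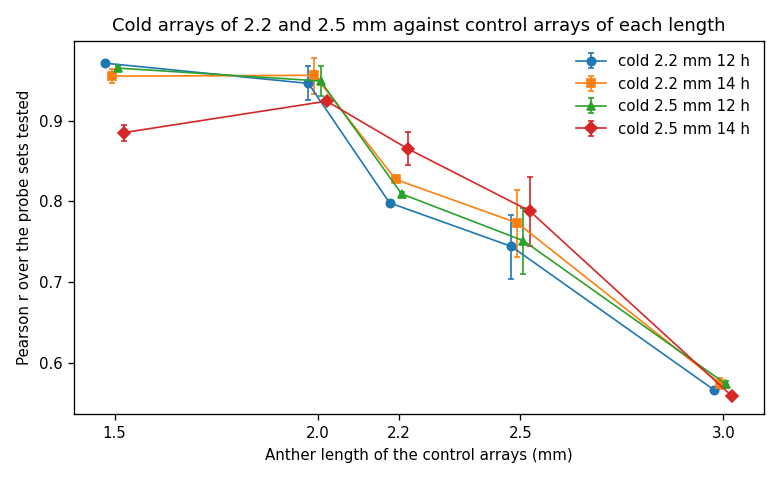
Pearson's r over 13805 probe sets (y axis) between each of the 4 cold arrays of 2.2 and 2.5 mm and the control arrays of each anther length in mm (x axis). Points are the mean of the 12 h and 14 h control arrays and bars run from the lower to the higher value. All 4 cold arrays are closest to control anthers of 1.5 or 2.0 mm and fall to between 0.558 and 0.574 at 3.0 mm.

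Differences between the temperatures were small for most probe sets. Values are log2 expression as deposited, and a difference is cold minus control in log2 units. Its median size was 0.17, and 238 probe sets (1.72%) differed by 2-fold or more. For 11119 probe sets (80.5%) the whole 95% confidence interval lay within 2-fold. The same 4 cold arrays set against control anthers of 2.2 and 2.5 mm had a median size of 0.38, with 2138 probe sets (15.5%) at 2-fold or more. Both comparisons use the same cold arrays, so they differ in their control arrays alone. The shorter anthers of 1.5 and 2.0 mm, compared between the temperatures at equal length, had a median size of 0.16, with 259 probe sets (1.88%) at 2-fold or more. Anthers of 2.2 and 2.5 mm were also set against those of 1.5 and 2.0 mm within each temperature. The median size was 0.17 within the cold, with 157 probe sets (1.14%) at 2-fold or more. Within the control it was 0.38, with 2092 (15.2%).

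**Figure D2:**
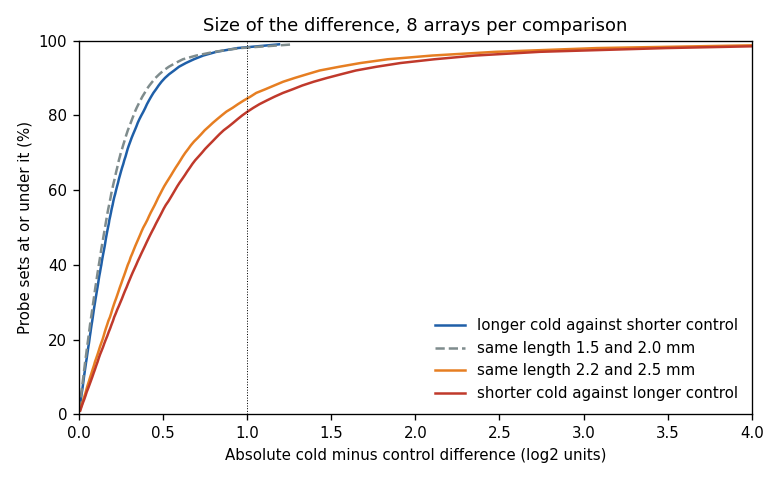
Share of the 13805 probe sets in percent (y axis) whose absolute cold minus control difference in log2 units (x axis) is at or under a given size, in 4 comparisons of 8 arrays each. The dotted line marks 2-fold. The curve of longer cold against shorter control anthers (median 0.17) lies beside that of 1.5 and 2.0 mm anthers (median 0.16) and left of those against control anthers of 2.2 and 2.5 mm (medians 0.38 and 0.45).

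A probe set was called where limma gave a Benjamini-Hochberg adjusted p under 0.05 and the difference was at least 2-fold, with light as a term. Of 13805 probe sets 3 were called (0.0217%), of which 1 was higher in the cold (0.00724%) and 2 were lower (0.0145%). None of the 3 has a gene name in the annotation used here. Without the 12 h cold array of 2.2 mm or of 2.5 mm, the 12 h control array of 1.5 mm or the 14 h control array of 2.0 mm the count was 0, and without either 14 h cold array it was 1. An unadjusted p under 0.05 was reached by 1254 probe sets (9.08%), and with 2-fold in addition by 39 higher (0.283%) and 100 lower (0.724%). At equal length, the cold arrays of 2.2 and 2.5 mm against the control arrays of 2.2 and 2.5 mm gave 597 higher (4.32%) and 1168 lower (8.46%) on 8 arrays by the same limma rule. Anthers of 1.5 and 2.0 mm compared at equal length gave 2 higher (0.0145%) and 1 lower (0.00724%) by that rule. A low count was thus not particular to longer cold against shorter control anthers.

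The called probe set that was higher in the cold was Ta.6665.1.S1_x_at, bright in every array (97.1st percentile or higher). Its values were 12.88 and 12.78 in the 2.2 mm cold anthers (12 h and 14 h) and 12.82 and 12.73 in those of 2.5 mm. In the control anthers they were 11.91 and 11.65 at 1.5 mm and 11.65 and 11.64 at 2.0 mm. All 4 cold arrays lay above all 4 control arrays, and the spread among the cold values was the smaller one. The means were 12.80 ± 0.066 and 11.71 ± 0.13 (SD, n = 4 each), a difference of 1.09 (SE 0.084), or 2.13-fold, with an adjusted p of 0.0117 in limma. The size held at 1.10 without the 2.5 mm, 14 h cold array, but the call was lost there (adjusted p 0.0508 in limma), as it was with a mean for each length (0.0774). Over all lengths, the 10 cold arrays (12.59 to 12.88) stayed above the 10 control arrays (11.10 to 11.91).

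A probe set of the same cluster went the other way. The numbers in an Affymetrix wheat name give a cluster of expressed sequences and then a subcluster within it. The 4 probe sets of cluster Ta.6665 on the array were all tested: Ta.6665.1.S1_at and Ta.6665.1.S1_x_at were higher in the cold, and Ta.6665.3.S1_at and Ta.6665.3.S1_x_at were lower. The other 3 were looked up after the call of the first and did not themselves pass on 8 arrays. A name ending in x_at marks a probe set that also holds probes matching other sequences, so the 4 readings are not independent.

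Ta.6665.3.S1_x_at stood at 7.56 and 7.30 in the cold at 2.2 mm and at 6.13 and 5.26 at 2.5 mm (12 h and 14 h). In the control it stood at 10.54 and 10.75 at 1.5 mm and at 9.99 and 10.10 at 2.0 mm. All 4 cold arrays lay below all 4 control arrays, and the 2.5 mm, 14 h array was the lowest. The difference was −3.78 (SE 0.51), with an adjusted p of 0.0847 in limma, and −3.31 (0.0942) without the 2.5 mm, 14 h array. Ta.6665.3.S1_at had −3.73 (SE 0.56, adjusted p 0.117), and Ta.6665.1.S1_at had 1.25 (SE 0.15, adjusted p 0.0585).

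Over all 20 arrays, both Ta.6665.1 probe sets had their 10 cold arrays above the 10 control arrays and both Ta.6665.3 probe sets had them below. Ta.6665 was the 1 cluster among the probe sets tested with such full separation in both directions. The Ta.6665.3.S1_x_at values of the control ran from 9.99 to 10.91 over all lengths. Those of the cold ran from 5.26 to 8.85, highest at 2.0 mm and lowest at 2.5 mm. The fall within the cold was thus larger than the whole range of the control.

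Ta.3563.1.S1_at was lower in the cold. It stood at 7.31 and 7.69 in the cold anthers of 2.2 mm and at 7.21 and 7.49 in those of 2.5 mm (12 h and 14 h). In the control anthers it stood at 9.06 and 9.58 at 1.5 mm and at 9.20 and 9.59 at 2.0 mm. The groups did not overlap, and the 14 h array was the higher one at each length in both temperatures. The means were 7.42 ± 0.21 and 9.36 ± 0.27 (SD, n = 4 each), a difference of −1.93 (SE 0.12), or 3.82-fold, with an adjusted p of 0.00555 in limma, the lowest of the comparison. Within 12 h the difference was −1.87 and within 14 h it was −1.996. The 10 cold arrays (7.21 to 8.23) all lay below the 10 control arrays (9.06 to 10.57).

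Ta.20591.2.S1_a_at was lower in the cold but dim in all 8 arrays. It stood at 2.82 and 2.87 in the cold at 2.2 mm and at 2.61 and 2.35 at 2.5 mm, close to the lowest deposited value of 2.28. The control arrays stood at 5.06 and 5.23 at 1.5 mm and at 4.69 and 4.70 at 2.0 mm. The groups did not overlap, but the control values lay only at the 31.0th to 36.5th percentile of their arrays and the cold values at the 5.87th to 14.5th. The fitted difference was −2.26 (SE 0.18), with an adjusted p of 0.0117 in limma. When values under each array's 40th percentile were raised to it, the difference was −0.09 (adjusted p 0.767) and was no longer called. The call was also lost without the 2.5 mm, 14 h cold array (−2.13, adjusted p 0.0508 in limma) and without tied probe sets (0.0817).

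The probe set passed the filter on dim values through the control anthers of 3.0 mm alone, where it was high at 8.30 and 8.69. Control anthers of 2.5 mm stood at 5.71 (12 h) and 8.19 (14 h). In the cold it stood at 4.53 and 4.82 at 1.5 mm and at 2.53 and 2.82 at 3.0 mm, values too dim to read as a course. Only the rise in the longer control anthers can be read. A second probe set of that cluster, Ta.20591.1.S1_a_at, was as dim, at 2.85 to 3.42 in the 4 cold and 4.35 to 4.92 in the 4 control arrays, and also passed the filter only through control anthers of 3.0 mm (7.79 and 8.09). Its fitted difference of −1.44 (SE 0.18, adjusted p 0.0621 in limma) was −0.09 with raised values. For Ta.20591.2.S1_a_at the highest of the 10 cold arrays (4.82) lay above the lowest of the 10 control arrays (4.69).

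TaAffx.4230.1.A1_at was picked for its size after the values were seen. It stood at 3.82 and 3.87 in the cold at 2.2 mm and at 2.89 and 2.28 at 2.5 mm, against 7.06 and 7.90 in the control at 1.5 mm and 6.49 and 6.51 at 2.0 mm. Here again the 2.5 mm, 14 h cold array was lowest, and no array of the groups overlapped. The cold values lay at the 1.56th to 24.1st percentile of their arrays, down to the lowest deposited value, and the probe set passed the filter only through control anthers of 3.0 mm (7.49 and 8.04). The fitted difference of −3.78 (SE 0.47) therefore has no reliable size and missed the threshold, with an adjusted p of 0.0621 in limma, and 0.0942 without that array. With values raised to the 40th percentile it was −1.504 (adjusted p 0.212). All 10 cold arrays (2.28 to 4.91) lay below all 10 control arrays (6.48 to 8.04).

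**Figure D3:**
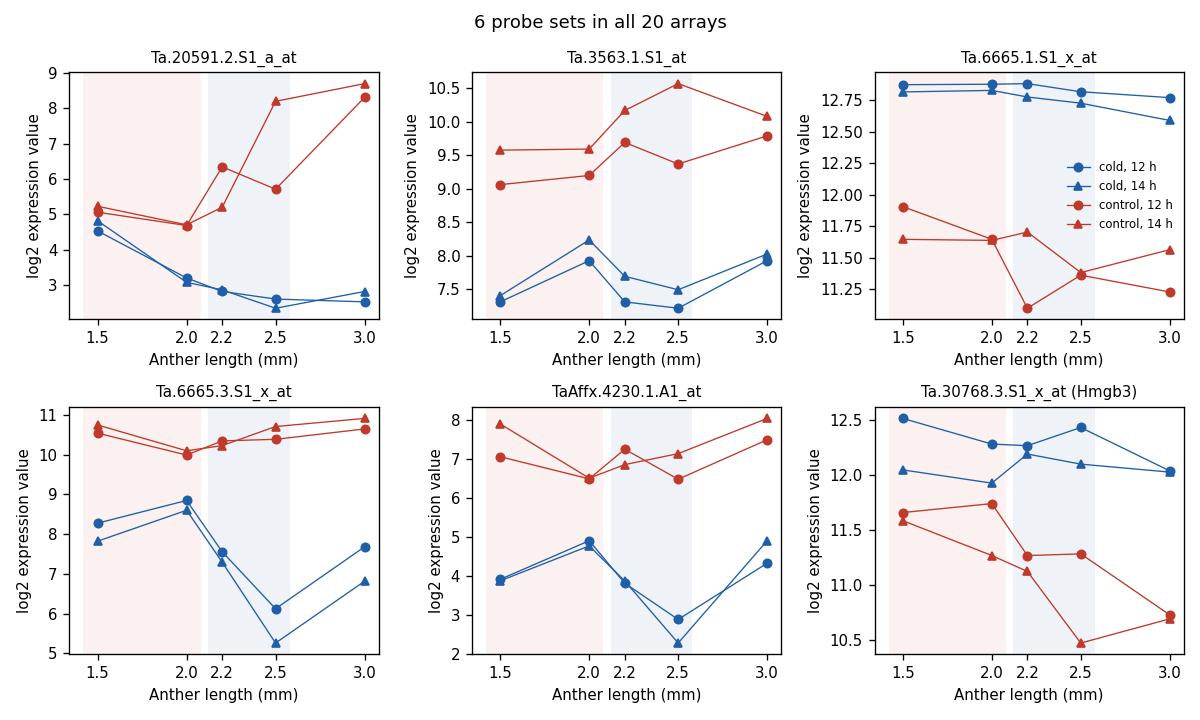
Deposited log2 values (y axis) of 6 probe sets at each anther length in mm (x axis) in cold (blue) and control (red) arrays with 12 h (circles) or 14 h (triangles) of light, 1 array per point. Blue shading marks the lengths from which the cold arrays of the comparison come and red shading those of its control arrays. In 5 panels the 10 cold and 10 control arrays do not overlap, and Ta.20591.2.S1_a_at is the exception at 1.5 and 2.0 mm.

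The lengths were then turned round, with cold anthers of 1.5 and 2.0 mm against control anthers of 2.2 and 2.5 mm. These 8 arrays include none of the first 8. A change that goes with development runs against the first comparison only where longer cold anthers are ahead of shorter control anthers in stage. Which of them were ahead was not tested, and the cold array of 2.2 mm and 12 h was closest to control anthers of 1.5 mm. Calls in the same direction therefore do not tell temperature from stage. In the reversed comparison limma called 1031 higher (7.47%) and 1435 lower (10.4%). All 3 probe sets called in the first comparison were called in the same direction here, which is 100% of the 3 and 0.122% of the 2466. The differences were 1.46 for Ta.6665.1.S1_x_at (adjusted p 0.000283 in limma), −2.24 for Ta.3563.1.S1_at (0.000806) and −2.45 for Ta.20591.2.S1_a_at (0.0224). With values raised to the 40th percentile, the last was −0.93 (adjusted p 0.171 in limma) and not called, and the other 2 kept their calls.

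Of the probe sets at an unadjusted p under 0.05 and 2-fold in the first comparison, the 100 lower ones and the 39 higher ones were followed in the reversed one. Of the 100, 46 were called lower (46%, beside 10.4% of all probe sets tested) and 9 called higher (9%, beside 7.47%). Of the 39, 4 were called higher (10.3%, beside 7.47%) and 5 called lower (12.8%, beside 10.4%). The higher ones thus stood near the background in both directions. PEAMT1, whose product makes the choline precursor phosphocholine, was under 2-fold and so not among the 39, but its signs were opposite. It had 0.79 (SE 0.28, adjusted p 0.492 in limma) in the first comparison and −1.64 (adjusted p 0.00127) in the reversed one. Its 2.5 mm, 14 h cold array (11.56) stood above the other cold arrays of the first comparison (10.16 to 10.55).

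**Figure D4:**
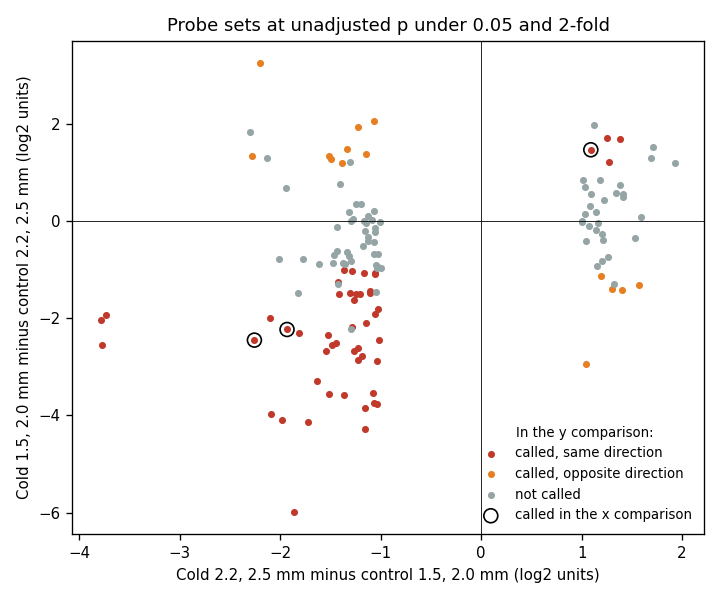
The 139 probe sets at an unadjusted p under 0.05 and 2-fold in longer cold against shorter control anthers, by that difference (x axis, log2 units) and by the difference in shorter cold against longer control anthers (y axis, log2 units), which uses 8 other arrays. Red points were called in the same direction in the second comparison, orange points in the opposite direction, and circles mark the 3 called in the first. Of the 100 points on the left, 46 are red and 9 are orange, and of the 39 on the right, 4 and 5.

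The ranges of the arrays were also set beside each other. All 4 cold arrays lay above all 4 control arrays in 391 probe sets (2.83%) and below them in 523 (3.79%). Above all 10 control arrays of the series they lay in 158 (1.14%), and below all 10 in 167 (1.21%). Over all 20 arrays, 41 probe sets (0.297%) had all 10 cold arrays above all 10 control arrays and 53 (0.384%) had them below. In longer cold against shorter control anthers the 41 differed by a median of 0.58 (0.22 to 1.39) and 4 of them by 2-fold or more. The 53 differed by a median of −0.93 (−3.78 to −0.24), and 24 of them by 2-fold or more. In the values as deposited, the lower ones thus held the larger differences. The 8 arrays of the comparison are among the 20, so these sizes follow in part from the choice. Some of the 53 were also dim in the cold, so their differences have no reliable size. With raised values TaAffx.4230.1.A1_at went from −3.78 to −1.504 and Ta.20591.1.S1_a_at from −1.44 to −0.09. Ta.6665.3.S1_x_at (−3.77), Ta.6665.3.S1_at (−3.54) and Ta.3563.1.S1_at (−1.93) stayed near their fitted sizes. The 53 as a set were not tested with raised values.

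Hmgb3 was the only name in those 94 that is more than a locus number, with 2 probe sets, both among the 41, and was picked for that after its values were seen. It encodes a high mobility group protein, one of the abundant proteins that bind and bend DNA in chromatin. Ta.30768.3.S1_x_at stood at 12.26 and 12.19 in the cold at 2.2 mm and at 12.43 and 12.10 at 2.5 mm, and at 11.66, 11.59, 11.74 and 11.27 in the control from 1.5 mm, 12 h to 2.0 mm, 14 h. The 4 cold arrays were above the 4 control arrays, by a mean of 0.68 (SE 0.098, adjusted p 0.108 in limma). The other, Ta.30768.1.S1_x_at, had 0.48 (SE 0.11, adjusted p 0.340). Neither was called. In the reversed comparison they had 1.15 (adjusted p 0.00138 in limma) and 0.82 (adjusted p 0.0156, under 2-fold).

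Of the other named probe sets, TCTP, which encodes the translationally controlled tumour protein found in growing tissues, had −0.33 (SE 0.075, adjusted p 0.316 in limma) and −0.32 in the reversed comparison. The fructan-degrading exohydrolase 1-FEH had −0.60 (SE 0.25, adjusted p 0.534) and −1.49. AdSS, which encodes adenylosuccinate synthetase of purine synthesis, had −0.34 (SE 0.14, adjusted p 0.535) and 0.49. Of 110 tested probe sets with a gene name, 8 had an unadjusted p under 0.05, a smaller share than the 9.08% of all probe sets tested, and none was called. These 8 were 2 each of Hmgb3 and wcH2B-8 and 1 each of TCTP, PEAMT1, 1-FEH and AdSS.

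The histones H2A and H2B, which package newly made DNA and mark dividing cells, differed little between the groups, with the 95% interval within 2-fold for 14 of 17. Of 17 probe sets tested, none was called and all 17 had a negative difference, with a median of −0.22 (−0.53 to −0.004) beside −0.03 over all probe sets. That sign rested on the cold array of 2.5 mm and 14 h: without it 7 of the 17 were negative and the median was 0.01 (−0.35 to 0.07). The largest was wcH2B-8 (Ta.7378.18.S1_at). It stood at 11.45 and 11.16 in the cold at 2.2 mm and at 11.33 and 10.63 at 2.5 mm, and at 11.46, 12.08, 11.63 and 11.53 in the control. All 4 cold arrays lay just below the control arrays, with a difference of −0.53 (SE 0.21, adjusted p 0.533 in limma). Many of these probe sets belong to near-identical family members and share sequence, so 17 is not a count of independent genes.

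Against control anthers of their own lengths, the same cold anthers had a median of 0.94 for the 17 histone probe sets, with 6 called higher on 20 arrays by limma (5.12% of all probe sets were). In the reversed comparison the median was 1.28 and 15 were called higher (7.47% of all probe sets were). The summed histone signal was 15.57 to 16.33 (log2) in the 4 cold arrays, 16.05 to 16.38 in the control arrays of 1.5 and 2.0 mm and 14.39 to 15.52 in those of 2.2 and 2.5 mm. The cold range overlapped that of shorter control anthers and lay above that of control anthers of equal length.

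Raftins are proteins that the wheat tapetum makes and deposits on the pollen wall. None of the 4 probe sets of raftin1a and raftin1b was called, and their differences were 0.11 to 0.24 with a median of 0.15. Raftin1b (Ta.4091.1.S1_s_at) stood at 10.72 and 12.15 in the cold at 2.2 mm and at 11.00 and 13.10 at 2.5 mm, and at 11.34 and 10.64 in the control at 1.5 mm and 12.18 and 11.86 at 2.0 mm. The groups overlapped widely, and both 14 h cold arrays were above their 12 h partners. The difference was 0.24 (SE 0.54, adjusted p 0.899 in limma), with a 95% interval of −1.02 to 1.50. Without the 2.5 mm, 14 h cold array it was −0.18, and all 4 were negative with a median of −0.24. With control anthers of 2.2 and 2.5 mm in place of the shorter ones, the median of the 4 was −1.51 and all 4 were called lower on 20 arrays (9.48% of all probe sets were).

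The summed raftin signal ran from 12.55 to 14.77 (log2) in the cold arrays, from 12.28 to 13.84 in the control arrays of 1.5 and 2.0 mm and from 14.76 to 15.14 in those of 2.2 and 2.5 mm. Raftin signal was thus present in every array, as the anther label asks. Of the markers listed for endosperm and meiosis, none was among the probe sets tested with a name, except that the name GLU1A matched the pattern for glutenins although it denotes a beta-glucosidase. GLU1A had −0.52 (SE 0.71, adjusted p 0.832 in limma), and −0.18 without the 2.5 mm, 14 h cold array. It stood at 3.79 to 6.60 in the 4 cold and 4.66 to 7.54 in the 4 control arrays. It passed the filter only through control anthers of 3.0 mm (7.59 and 7.66), so its difference has no reliable size.

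Photosynthesis genes did not part the groups. Of 10 probe sets tested none was called, and the median difference was −0.01 (−0.34 to 0.48). The largest was petC, the Rieske iron-sulphur protein of the cytochrome complex, at 11.76, 12.08, 11.70 and 12.87 in the cold and 11.41, 11.03, 12.00 and 12.03 in the control. Those ranges overlapped, with a difference of 0.48 (SE 0.32, adjusted p 0.667 in limma). At equal length the median of the 10 was −1.25, with 6 called lower on 20 arrays (9.48% of all probe sets were), and in the reversed comparison it was −1.59, with 8 called lower (10.4% of all were). The interval lay within 2-fold for 5 of the 10 in the first comparison, and for the other 5 it reached 2-fold or beyond. Without the 2.5 mm, 14 h cold array the median of the 10 was −0.14 and petC had 0.23.

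Tubulins, the subunits of the spindle and the phragmoplast, had 9 probe sets tested and none called, with a median of 0.06 (−0.15 to 0.21). All 9 intervals lay within 2-fold, and without the 2.5 mm, 14 h cold array the median was 0.15. The largest was Tubb5 (Ta.214.1.S1_at) with 0.21 (SE 0.13, adjusted p 0.647 in limma). The median at equal length was 0.39 with none called on 20 arrays, and in the reversed comparison 0.60 with none called.

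Redox genes had 7 probe sets tested, of catalase, peroxiredoxin, thioredoxin and a glutathione transferase, and none was called. Their median was −0.22, and 6 of 7 were negative. CAT1, a catalase that removes hydrogen peroxide, was the largest with −0.52 (SE 0.60, adjusted p 0.801 in limma). It stood at 6.85, 7.91, 6.58 and 8.95 in the cold and at 8.29, 6.95, 8.80 and 8.31 in the control, so the arrays interleaved. The value moved with single arrays, from −1.05 to −0.15 with 1 left out, and was −0.99 without the 2.5 mm, 14 h cold array. In 12 h arrays alone it was −1.83 and in 14 h arrays alone 0.80. At equal length the median of the 7 was −1.501 with 5 called lower on 20 arrays (9.48% of all probe sets were), and in the reversed comparison −2.12 with 4 called lower (10.4% of all were). CAT1 itself had −0.26 at equal length, not called.

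Of genes of later anthers, LTP3 and amy1 were looked at and neither was called. LTP3 cannot be read here, and amy1 alone does not show whether later genes differ. LTP3, a lipid transfer protein gene, stood at 2.42 to 2.51 in all 8 arrays, near the lowest deposited value, while control anthers of 3.0 mm reached 10.79 and 11.65. Its difference of −0.02 (adjusted p 0.889 in limma) compares values at which no signal can be read. The amylase gene amy1 stood at 9.32, 10.41, 9.05 and 9.95 in the cold and at 10.41, 8.33, 8.95 and 9.99 in the control. The arrays interleaved, with a difference of 0.26 (SE 0.51, adjusted p 0.880). Set against control anthers of equal length, amy1 had −2.94 and was called lower on 20 arrays. LTP3 was called lower too, but its control arrays of 2.2 and 2.5 mm (3.73 to 7.24) stand against cold values near the lowest deposited value, so no size is given.

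**Figure D5:**
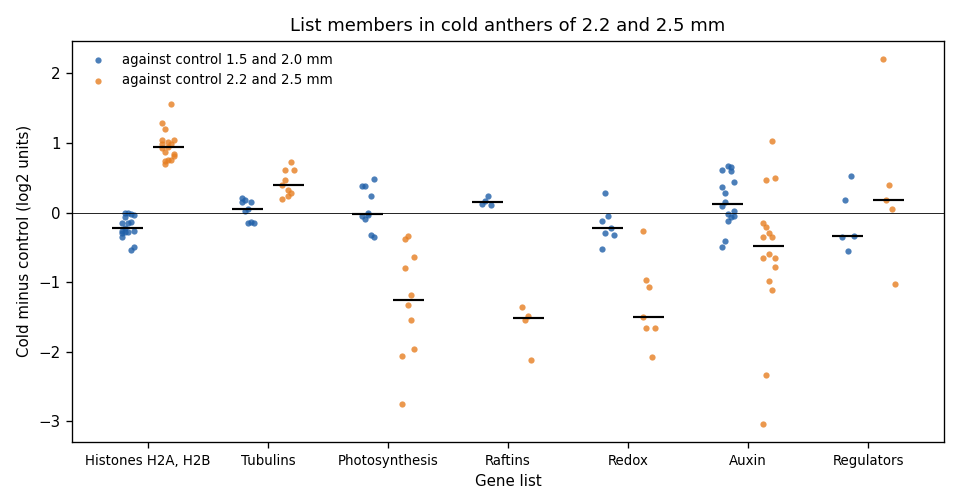
Cold minus control differences in log2 units (y axis) of the probe sets of 7 gene lists (x axis) in cold anthers of 2.2 and 2.5 mm, against control anthers of 1.5 and 2.0 mm (blue, 8 arrays) and of 2.2 and 2.5 mm (orange, 20-array model). Points are probe sets and bars are medians. Medians are −0.22 and 0.94 for histones, −0.01 and −1.25 for photosynthesis and 0.15 and −1.51 for raftins, and both comparisons use the same cold arrays.

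Smaller lists gave no call either. The 4 translation factors and ribosomal proteins had a median of 0.15, with eIF-2-beta the largest at −0.19 (SE 0.11, adjusted p 0.647 in limma). The proton pump gene ha1 had 3 probe sets between −0.02 and 0.14. FKBP70, an immunophilin, had −0.16 (SE 0.24, adjusted p 0.844). Without the 2.5 mm, 14 h cold array the translation median was 0.03, the 3 ha1 probe sets lay between −0.03 and −0.005 and FKBP70 had −0.015. No probe set of the lists for other histones, cold and drought response, cell wall, floral MADS genes, meiosis or kinases was tested, so the data give nothing on these by name.

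Auxin genes came from a table that the study drew up from these samples, so their direction is not independent evidence. Of 26 probe sets 16 were tested and none was called, with a median of 0.13 (−0.50 to 0.68), 10 positive and 6 negative. Among the 16, those of Auxin-induced protein 5NG4 (2.28 to 3.82), IAA12 (2.29 to 3.49) and IAA14 (3.32 to 3.75) held no readable signal in the 8 arrays. They passed the filter only through control anthers of 3.0 mm (7.24 to 10.85). Their signs and their lack of a call therefore carry no information, although they count in the tally and the median. Auxin response factor 5 (Ta.28513.1.S1_s_at), a transcription factor of auxin signalling, had the largest difference of 0.68 (SE 0.32, adjusted p 0.584 in limma). It stood at 5.16, 6.27, 5.00 and 6.06 in the cold and at 4.79, 4.36, 5.11 and 5.51 in the control, dim in all 8 and with overlap. This probe set too passed the filter only through control anthers of 3.0 mm (7.44 and 7.07), so its difference has no reliable size. The median of the 16 at equal length was −0.47, with 1 called higher and 3 lower on 20 arrays (5.12% and 9.48% of all probe sets were), so the 1 of 16 stood near the background. A second probe set of this factor, Ta.6746.1.S1_at, had 0.65 (SE 0.43, adjusted p 0.673 in limma). It was as dim, at 2.75 to 5.45 in the 8 arrays, and passed only through control anthers of 3.0 mm (7.17 and 7.28). Ta.4027.1.A1_at, an unnamed protein among the 16, was also dim (4.88 to 6.36) and passed only there (9.33 and 9.60).

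Of 8 probe sets of pollen regulators named in the study 5 were tested and none was called. TaDPW2, whose rice counterpart is required for the pollen wall, had the largest difference of −0.55 (SE 0.45, adjusted p 0.722 in limma). It stood at 7.21, 7.75, 7.12 and 7.72 in the cold and at 8.15, 6.70, 8.41 and 8.73 in the control. The cold arrays lay below 3 of the 4 control arrays, and the control array of 1.5 mm and 14 h was the lowest of all 8. The bHLH factor had −0.35 (SE 0.44, adjusted p 0.815 in limma) here, beside 2.21 against control anthers of equal length. WRKY34, a pollen regulator in Arabidopsis, had −0.33 (SE 0.19, adjusted p 0.644), with all 4 cold arrays (7.07 to 7.30) just below all 4 control arrays (7.35 to 8.05).

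Light did not change the temperature difference in a way that passed the test. In the interaction of temperature and light, limma called none of 13805 probe sets (0%), and 1238 (8.97%) had an unadjusted p under 0.05. Without the control array of 1.5 mm and 14 h, 23 were called and without that of 2.0 mm and 14 h, 2 were. The fit has 4 residual degrees of freedom, and 2 arrays stand behind each temperature and light.

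A model of all 20 arrays, with a mean for each temperature and length, gave the same differences with another spread. That spread came from the 12 h and 14 h arrays of each temperature and length, over all 20 arrays. It leaves out the difference between lengths, which the 8-array fit holds in its spread. It called 14 higher (0.101%) and 38 lower (0.275%), which included the 3. The other 49 had adjusted p between 0.0541 and 0.509 on 8 arrays in limma, so they rest on the 20-array spread. The 52 fell into 39 clusters, 9 of which held more than 1 called probe set. None of the 52 has a gene name. Of the 14 higher, 4 had all 10 cold arrays above all 10 control arrays, and of the 38 lower, 18 had them below. Without the cold array of 2.5 mm and 14 h that model called 8 higher and 26 lower.

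Some of these 52 differed in the first comparison and not in the reversed one. The 4 probe sets of cluster Ta.10354 on the array, picked after their values were seen, had −1.09 to −2.01 in the first (adjusted p 0.113 to 0.246 in limma on 8 arrays) and 0.03 to −0.79 in the reversed one (0.231 to 0.968). TaAffx.13219.2.S1_s_at, in contrast, had 1.38 and 1.68, and Ta.18647.1.S1_s_at had −1.49 and −2.56. Both were likewise picked after their values were seen. The first passed the filter through cold anthers alone. The second was dim in the 8 arrays (4.78 to 6.62) and passed only through control anthers of 2.5 mm (8.13 and 7.79). Those anthers are part of the reversed comparison, so its like signs are not independent of the filter. The sign was opposite in the reversed comparison for 6 of the 14 higher and 5 of the 38 lower, among them Ta.28496.1.A1_at with 1.57 and −1.32. The difference between the 2 comparisons was not tested.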

How the data were processed

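Total RNA of each anther sample was hybridised to 1 Affymetrix Wheat Genome array. The deposited values are log2 expression, with MAS5 named in the submitters' processing notes. The sources used here give neither its version nor the scaling between arrays. All 20 arrays share the lowest value 2.28, and ties are common: values equal in 3 or more arrays occur in 12103 of the 28894 probe sets (11.3% of those tested, none of the 3 called). A reporter control was dropped.

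Probe sets had to exceed the 60th percentile of both arrays of some temperature and length, which 13805 did. The limma package (version 3.58.1, R 4.3.3) fitted temperature and light with moderated variances and a trend, adjusted by Benjamini-Hochberg over all 13805. The 8-array fits had 5 residual degrees of freedom (4 for the interaction). The 20-array model, with a mean per temperature and length, had 9. The fit was tested on simulated data. The number of arrays limits the precision, and 95% intervals reached a median of 0.44 log2 units to each side. P-values measure the spread between these arrays, part of which may be technical. In the 8-array fits of temperature and light it also holds the difference between the 2 lengths of a temperature.

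The platform annotation gave a symbol to 845 probe sets, 115 of them with more than a locus number. Gene lists were patterns on these names, described by counts and medians. The 8 regulators were tied to probe sets through entries of the study's table that equal differences of deposited columns, most of them on 1 value. Named in the text are the called probe sets, the largest change of each list, and others picked with their values known, not all of them marked as such. Members and lists were chosen with earlier results of these data known. Alternatives covered the normalization, filters, ties, variance model, light term, design, threshold and each array left out.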

Additional observations from a re-analysis of the deposited data

Results flagged for a closer look

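In 34 groups of 4 values (16 named probe sets and the array medians, each in cold and control), 2 had a sample farther from the others than Dixon's critical value of 0.829, and chance flags about 1 in 20 groups. In the control, Ta.6665.1.S1_x_at stood at 11.9 in the 1.5 mm, 12 h array and at 11.6 in each of the other 3 (ratio 0.967). LTP3 stood at 2.42 in the cold array of 2.5 mm and 12 h and at 2.51 in the other 3 (ratio 1), all near the lowest deposited value.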

How the results depend on the processing

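For longer cold against shorter control anthers the count of 3 stayed at 2 to 4 with quantile normalization, a filter on the 8 arrays, no variance trend, a mean for each length, no minimum fold, no tied probe sets, or 12 h arrays alone (2, none of them among the 3). Only 2 of the 3 were among those called with the filter on the 8 arrays, a mean for each length (4 lower and 0 higher) or no tied probe sets. It was 6 with no filter, 13 with values raised to the 40th percentile, 18 with no light term, 52 on 20 arrays, 34 on 20 arrays without the cold array of 2.5 mm and 14 h (chosen after seeing the data), and 139 at an unadjusted p and 2-fold. It was 0 with 14 h arrays alone and 0 without the cold arrays of 2.2 mm, those of 2.5 mm, the control arrays of 1.5 mm or those of 2.0 mm. Leaving out 1 array gave 0 to 4: it was 0 without the 12 h cold array of 2.2 or 2.5 mm, the 12 h control array of 1.5 mm or the 14 h control array of 2.0 mm, 1 without either 14 h cold array, 3 without the 14 h control array of 1.5 mm and 4 without the 12 h control array of 2.0 mm. The counts rest on few degrees of freedom, and sizes moved less: 1.02 to 1.16 for Ta.6665.1.S1_x_at and −2.01 to −1.86 for Ta.3563.1.S1_at over 24 alternatives (adjusted p 0.00236 to 0.682 and 0.000104 to 0.682 in limma), and −2.48 to −0.09 for Ta.20591.2.S1_a_at over 23 (0.00729 to 0.767).

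Probe sets called the same way in both comparisons numbered 9 with raised values, 13 with no light term, 22 on 20 arrays and 55 at an unadjusted p and 2-fold, and 0 to 4 with 1 array left out. The reversed comparison reached 6094 with no minimum fold and kept within 1.5 times otherwise. The interaction went from 0 to 23 with 1 array left out.

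Signs of small differences that were never called turned for some named genes, and the cause was not tested. Raftin1b was −0.90 in 12 h arrays, −0.065 without cold 2.5 mm, −0.28 without control 1.5 mm, −0.27 on 20 arrays without the 2.5 mm, 14 h cold array, and −0.23 to 0.64 with 1 array left out. FKBP70 was 0.043 without cold 2.5 mm, 0.12 without control 1.5 mm and −0.36 to 0.060 with 1 array left out. The gene amy1 was −0.50 in 12 h arrays and −0.22 to 0.71 with 1 left out. CAT1 was 0.80 in 14 h arrays. GLU1A was 0.45 without control 2.0 mm and −1.08 to 0.021 with 1 left out. For ha1 the values were −0.12 in 12 h arrays, −0.020 without cold 2.5 mm, −0.017 on 20 arrays without the 2.5 mm, 14 h cold array, and −0.019 to 0.21 with 1 left out. LTP3 was 0.11 in that 20-array model. TaDPW2 was 0.016 in 14 h arrays and 0.024 without control 2.0 mm. No paired analysis was possible because the labels number no replicates; light, which each temperature and length has at both settings, was a term instead.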
